A study of Mus musculus with 3 samples.

Results

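Trem2, Tyrobp, Gpnmb, Fabp5, Cd9, Cd63, Lpl, Lgals3, Plin2 and Syngr1 are 10 genes of the Trem2 lipid-handling programme of macrophages. They were taken by symbol from the 32285 genes counted in each library, and all 10 were present. These genes and the gene lists read further below were chosen with earlier results of these data known, so counts over them are descriptive. The data are droplet single-cell RNA counts of leukocytes sorted on CD45 from hearts of C57BL/6J mice aged 8 to 9 weeks. There was 1 library for each of 3 groups: Sham, the operated control by its name; MI, myocardial infarction; and MI-E, which the labels do not expand. The labels attach 1 and the same account of ligation of the left anterior descending coronary artery to every library, Sham included. The day after surgery and the number of hearts behind a library are not stated. With 1 library a group, library and group cannot be told apart, no difference has a replicate check, and no p-value is given. The intervals are exact 95% Poisson or binomial (Clopper-Pearson) intervals and cover counting error only. Where a count is 0, the limit that 3 counts give is printed, with the exact limit beside it.

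TREM2 is a receptor of macrophages and microglia that binds lipids, lipoproteins and debris of dead cells. It has no signalling tail of its own and pairs with the adaptor TYROBP (DAP12), which recruits the kinase SYK. Macrophages that have taken up much lipid, in obese fat, in atherosclerotic plaques and around damaged myelin, are known for a programme that combines this receptor with lysosomal, lipid-binding and lipid-storage proteins. In the infarcted heart, macrophages clear dead muscle cells and their lipids.

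The libraries held 9095 to 12707 barcodes and 41140109 to 104562768 unique molecular identifiers (UMIs, each a counted RNA molecule). After filters on quality and doublets, 10081 Sham, 8169 MI and 11991 MI-E cells were kept, with medians of 2822, 9460 and 7408 UMIs per cell. Pairs of libraries shared 26 to 45 barcodes. The 10 genes were left out of the variable genes used for clustering, and none of them was used to name a class of cells. Of 21 clusters, 9 formed the monocyte-macrophage class, with 4078 Sham, 6445 MI and 6758 MI-E cells, and all 23 macrophage markers were detected in it in every library. The summed level of these markers was 24702, 23521 and 20510 CPM (UMIs scaled to a class total of 1000000). Unless said otherwise, values given in threes are in the order Sham, MI, MI-E. Different clusters held most of the class: clusters 2 and 4 held 47.3% and 35.7% of the Sham cells. Cluster 19 held 37.6% of the MI cells and 31.4% of the MI-E cells, and neither it nor cluster 20 held any Sham cell. The sort should leave only leukocytes, but 51 to 174 fibroblasts and 87 to 270 endothelial cells were also present in each library.

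The promoters of the members that were higher in MI than in Sham are printed here where the RefSeq table (GRCm38.p6) has an entry, so that their letters can be set beside the levels that follow. Each runs 5′ to 3′ on the gene's strand, from 250 bases before the RefSeq start to 30 bases after it, and capitals mark a match to a motif searched on both strands.
Trem2, chr17:48346151-48346430, plus strand: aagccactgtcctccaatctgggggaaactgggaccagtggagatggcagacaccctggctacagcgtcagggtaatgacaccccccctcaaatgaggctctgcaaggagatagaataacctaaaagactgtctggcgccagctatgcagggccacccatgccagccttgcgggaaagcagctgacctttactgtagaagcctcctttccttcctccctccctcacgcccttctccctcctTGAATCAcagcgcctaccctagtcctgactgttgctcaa
Gpnmb, chr6:49036268-49036547, plus strand: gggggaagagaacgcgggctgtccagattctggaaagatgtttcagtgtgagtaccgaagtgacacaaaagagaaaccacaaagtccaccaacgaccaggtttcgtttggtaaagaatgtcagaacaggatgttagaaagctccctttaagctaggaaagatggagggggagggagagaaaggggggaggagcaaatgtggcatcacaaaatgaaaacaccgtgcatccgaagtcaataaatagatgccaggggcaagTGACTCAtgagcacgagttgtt
Plin2, chr4:86670030-86670309, minus strand: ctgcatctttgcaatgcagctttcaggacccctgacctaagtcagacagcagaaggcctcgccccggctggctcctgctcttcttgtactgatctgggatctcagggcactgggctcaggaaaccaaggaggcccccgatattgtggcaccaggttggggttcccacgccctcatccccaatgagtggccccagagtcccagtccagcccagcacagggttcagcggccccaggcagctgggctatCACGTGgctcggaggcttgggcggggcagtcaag
Lgals3, chr14:47373610-47373889, plus strand: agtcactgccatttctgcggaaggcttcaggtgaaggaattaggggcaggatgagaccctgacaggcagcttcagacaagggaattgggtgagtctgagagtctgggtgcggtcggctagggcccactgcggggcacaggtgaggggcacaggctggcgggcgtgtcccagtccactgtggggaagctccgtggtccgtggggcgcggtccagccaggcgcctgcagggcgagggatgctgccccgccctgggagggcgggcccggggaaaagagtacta
Syngr1, chr15:80091084-80091363, plus strand: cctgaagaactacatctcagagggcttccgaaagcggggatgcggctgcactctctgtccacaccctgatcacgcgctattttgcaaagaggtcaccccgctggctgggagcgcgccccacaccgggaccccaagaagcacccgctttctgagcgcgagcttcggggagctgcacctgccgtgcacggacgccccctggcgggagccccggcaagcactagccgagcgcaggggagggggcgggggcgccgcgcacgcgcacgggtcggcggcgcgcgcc
Fabp5, the sixth of these members, has no entry, nor have Tyrobp and Lpl. The motifs were searched in windows that reach 50 bases past the start, in 7 member promoters and in 32851 promoters in all. TGANTCA is a loose form of the site of AP-1 factors, in which N is any base. It stood in the Trem2 promoter as TGAATCA, beginning 9 bases before the start, and in the Gpnmb promoter as TGACTCA, at base 9 after it. Only the Gpnmb match has the C or G that the AP-1 site holds at N. With any base at N, the motif stood in 7.81% of all promoters. CACGTG, the E-box core of the MiT/TFE and MYC factors, stood in the Plin2 promoter at 4 bases before the start and in 7.15% of all promoters. The longer forms TCACGTGA, which contains CACGTG, and TCACATGA stood in no member promoter, and in 0.974% and 0.986% of all promoters. GAGGAAGT, a form of the PU.1 motif, stood in none of the 7 and in 3.20% of all. A match describes letters only. The Lgals3 window stands at RefSeq's start, which lies inside the gene as GENCODE annotates it, from 47367751 on chromosome 14.

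The receptor Trem2 had a level in the monocyte-macrophage class of 211 CPM for Sham, 681 CPM for MI and 543 CPM for MI-E. Its level in MI was 3.23-fold that of Sham (3.13 to 3.33), and MI-E lay between, 1.25-fold below MI. Cells were thinned to 1500 UMIs each so that shares could be compared at equal depth. A Trem2 UMI was then found in 24.5%, 55.3% and 43.4% of cells, against 49.7%, 89.5% and 80.2% before thinning. B and T cells, which should lack the gene, gave 0.395%, 1.43% and 6.05% after thinning. Median depth before thinning was 4899, 10151 and 9645 UMIs in monocyte-macrophage cells and 2377, 2595 and 2318 in B and T cells. Tyrobp, the adaptor, differed less, at 2046, 2565 and 2382 CPM, with MI 1.25-fold above Sham. A Tyrobp UMI was present in 91.4%, 95.5% and 95.4% of thinned cells. The receptor thus differed between the libraries by a larger factor than the adaptor it signals through.

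Fabp5, a carrier of fatty acids in the cytosol, was at 43.5, 3222 and 2551 CPM. MI was 74.2-fold above Sham (69.6 to 79.1) and MI-E was 1.26-fold below MI. After thinning, 4.35%, 57.3% and 50.8% of cells had a Fabp5 UMI, against 1.55%, 10% and 10.8% of B and T cells. Of the 946 Sham UMIs, 93 (9.83%) lay in 1 cell of cluster 15. Plin2, which coats lipid droplets, was at 343, 1021 and 876 CPM, and MI was 2.97-fold above Sham (2.90 to 3.04). Lpl, the lipase that frees fatty acids from lipoproteins, was at 141, 170 and 131 CPM. Its level in MI was 1.20-fold that of Sham (1.16 to 1.25) and 1.30-fold that of MI-E, so the lipase differed little where the fatty acid carrier and the droplet coat were far higher.

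Gpnmb, a glycoprotein of lysosomes and the cell surface, was close to absent in Sham: 48 UMIs or 2.20 CPM, against 285 CPM for MI and 275 CPM for MI-E. MI was 129-fold above Sham (97.3 to 175), and MI-E was 125-fold above it (94.2 to 169). The 48 Sham UMIs lay in 21 cells, and 15 of them (31.2%) in the single Sham cell of cluster 17. After thinning, 0.234%, 21.7% and 17.9% of cells had a Gpnmb UMI. B and T cells gave 0 of 3294 Sham cells at this depth, for which 3 counts give a limit of 0.0911% (exact upper limit 0.112%), then 1.43% in MI and 1.51% in MI-E. Cd63, a tetraspanin of late endosomes, was level at 640, 650 and 627 CPM, and Cd9, a tetraspanin of the plasma membrane, at 164, 158 and 164 CPM. Both tetraspanins therefore lay within 1.04-fold in every pair of libraries. The thinned shares of cells with a Cd63 UMI, 55.4%, 46.0% and 39.9%, do not follow these levels, so no order is read from them.

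Lgals3, galectin-3, a sugar-binding protein that macrophages secrete and that marks damaged lysosomes, was at 952, 4080 and 4763 CPM. MI was 4.29-fold above Sham (4.23 to 4.35), and MI-E was 1.17-fold above MI, while the other members far higher in MI than in Sham were lower in MI-E than in MI. After thinning 44.7%, 94.3% and 96.9% of cells had an Lgals3 UMI, while B and T cells gave 4.25%, 15.7% and 32.0%. Syngr1, a synaptogyrin best known from synaptic vesicles, was at 2.48, 162 and 117 CPM, the Sham value resting on 54 UMIs in 47 cells. MI exceeded Sham 65.4-fold (50.1 to 87.2) and MI-E 1.38-fold (1.34 to 1.42). The gene overlaps Rpl3 on the opposite strand, as Cd9 overlaps Gm28809 and Gm26728, and no source used here says whether counting used strand.

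**Figure D1:**
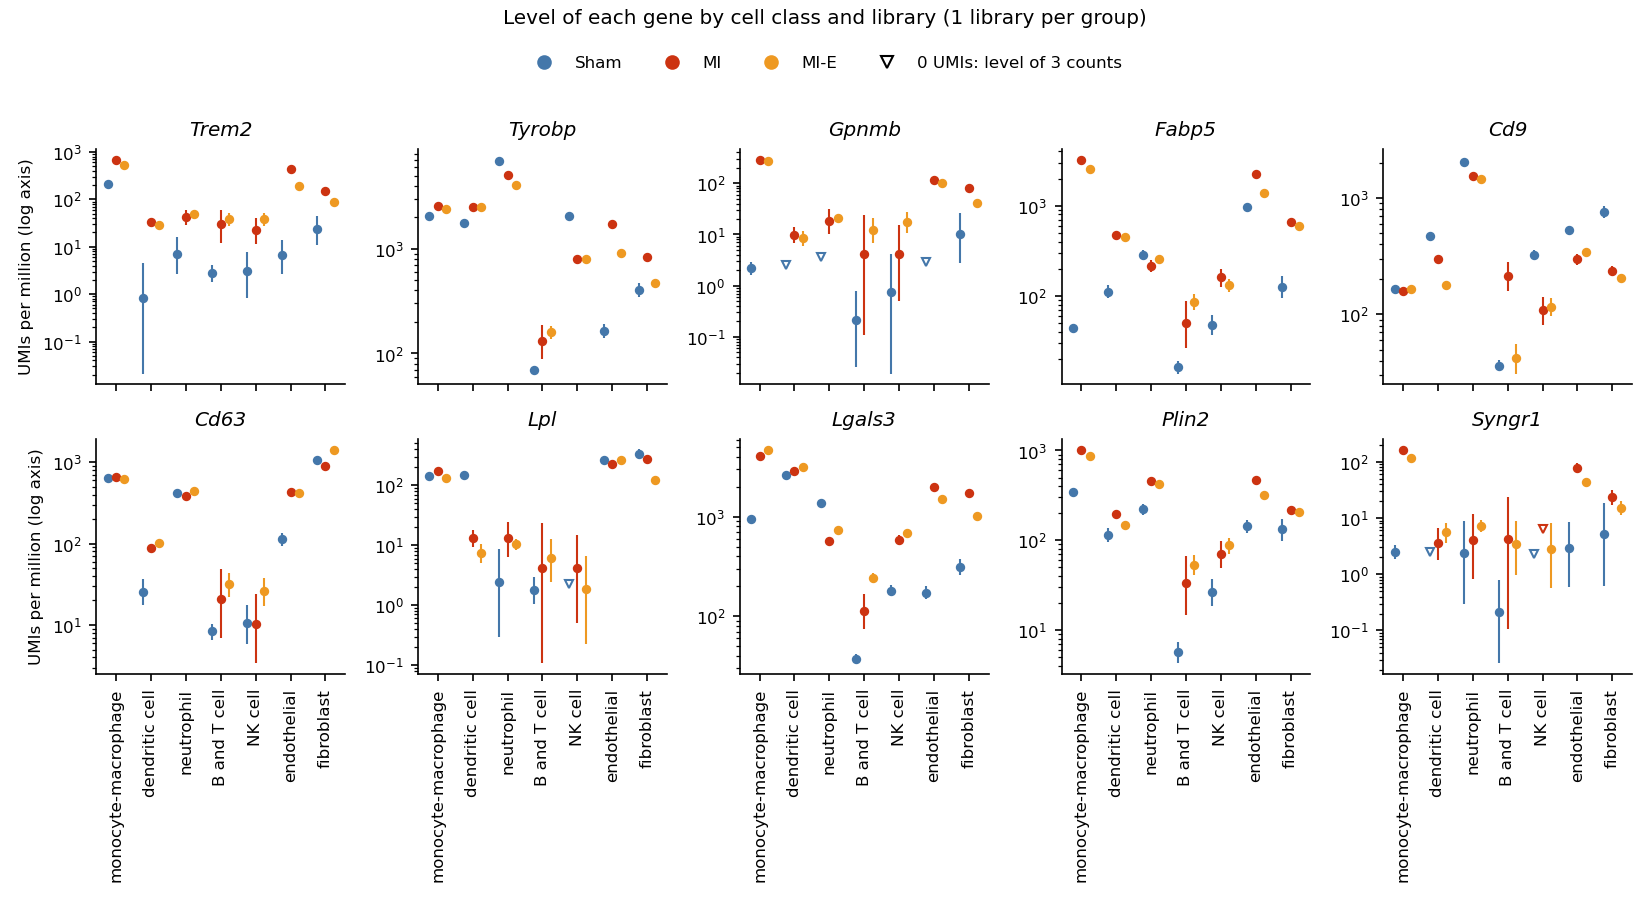
Level of each of the 10 genes, in CPM on a log axis, in 7 classes of cells and the 3 libraries, with exact 95% Poisson intervals; triangles mark classes with 0 UMIs at the level of 3 counts. Gpnmb, Fabp5 and Syngr1 stand at 2.20, 43.5 and 2.48 in Sham monocyte-macrophage cells and at 285, 3222 and 162 in MI, and Cd9 and Cd63 stand together.

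A gene was called when it differed by at least 1.5-fold on CPM + 1, among genes with a mean of at least 5 CPM. For MI against Sham, 6 of the 10 members were called higher (Trem2, Gpnmb, Fabp5, Lgals3, Plin2 and Syngr1) and 0 lower, where 23.6% of all 8434 genes measured were called higher and 18% lower. The median log2 difference was 1.63 over the members and 0.11 over all genes. MI-E against Sham, which shares the Sham library with the comparison before it, also gave 6 higher and 0 lower, with 24.2% and 18.6% of all genes called and medians of 1.35 and 0.12. As a mean within clusters held by both libraries, however, Plin2 was at a log2 difference of 0.49 for MI-E against Sham, short of a call. Cd63 and Lpl passed it at 0.91 and 0.95. The Lpl mean rests on cluster 12, at 3.54 from 2 UMIs in MI-E against 0 in Sham. Lpl was at 0.79 in cluster 4 and at -1.49 in cluster 10. For MI-E against MI, 0 members were called in either direction, where 4.37% of genes were called higher and 4.48% lower. The members' median was then -0.16 and that of all genes 0.02. The 4 members not called for MI against Sham (Tyrobp, Cd9, Cd63 and Lpl) changed sign between processing settings. The intervals of Trem2, Fabp5, Syngr1 and Lpl over the class put each below its MI level in MI-E, by 1.25- to 1.38-fold. That is less than the fold used for a call and has no replicate behind it. As a mean within clusters held by both libraries, the log2 differences of these genes were smaller, at -0.12, -0.07, -0.08 and 0.15 in that order. Lpl thus changed direction.

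Sums of other marker lists in the class differed between the libraries, and their part in the results was not tested. In the monocyte-macrophage cells, the 5 red blood cell markers were all seen and summed to 534, 37.8 and 72.3 CPM, and the 7 cardiomyocyte markers, all seen, to 98.0, 17.0 and 28.7 CPM. The 9 markers of B cells, all seen, were likewise highest in Sham, with sums of 267, 21.3 and 33.8 CPM. The 9 markers of classical monocytes, which are part of the class, ran the other way, at 470, 1361 and 3885 CPM. The share of the class in classical monocyte cluster 10 was 3.95%, 7.28% and 22.6%.

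Since Sham and MI cells fell largely into different clusters, the members were also compared inside clusters that held at least 50 cells of both. Cluster 4 is a macrophage cluster of 1456 Sham, 350 MI and 174 MI-E cells. In it 7 members were called higher in MI than in Sham and 0 lower, where 20.6% of genes were called higher and 11.9% lower. Trem2 was at 257, 653 and 669 CPM in cluster 4, with MI 2.54-fold above Sham. Gpnmb went from 7 UMIs (0.769 CPM) to 124 UMIs (30.7 CPM), 40.0-fold, with a wide interval of 18.8 to 101. For comparison, Gpnmb was at 18.6 CPM in the neutrophils and at 9.95 CPM in the dendritic cells of MI. Fabp5 was at 29.0 and 399 CPM, 13.8-fold higher, and Lgals3 at 588 and 2135 CPM, 3.63-fold higher. Plin2 was 1.81-fold higher and Cd9 1.85-fold, at 194 against 105 CPM. So inside this cluster the folds of Gpnmb and Fabp5 were smaller than over the class, and Cd9, level over the class, was higher in MI. Between MI and MI-E, cluster 4 had 1 call, Lpl at 127 and 204 CPM, 1.61-fold higher in MI-E (1.42 to 1.83), where 8.34% of genes were called higher and 5.1% lower.

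Cluster 10, classical monocytes, held 161 Sham, 469 MI and 1527 MI-E cells. There 6 members were called higher in MI than in Sham and 1 lower, where 20.8% of genes were called higher and 15.4% lower. Trem2 was at 92.5, 172 and 145 CPM, below its level in each macrophage cluster with at least 50 cells of the same library. Fabp5 was at 232 and 723 CPM in Sham and MI, 3.12-fold higher, and Gpnmb at 10.9 and 45.0 CPM, 4.11-fold higher. Cd63 was at 38.8 and 94.9 CPM, 2.45-fold higher, although it was level over the class. Syngr1 was listed at 0 UMIs in Sham and at 12.0 CPM in MI, at least 4.03-fold higher against a floor of 3 counts (exact lower limit 3.15). Lpl was the member called lower, from 74 UMIs (73.6 CPM) in Sham to 73 UMIs (18.7 CPM) in MI, 3.94-fold (2.81 to 5.52). Lgals3, 4.29-fold higher over the class, was at 4705 CPM in the Sham monocytes and 4230 CPM in those of MI, so its difference over the class was not repeated in them. Between MI and MI-E, 0 members were called in cluster 10, where 3.14% of genes were called higher and 4.57% lower.

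Cluster 11, macrophages of 352 Sham and 66 MI cells, gave 6 members higher and 0 lower, where 27.1% of genes were called higher and 15.7% lower. Trem2 was at 336 CPM in Sham and, at 702 CPM, 2.09-fold higher in MI, and Lgals3 and Plin2 were 3.26- and 2.81-fold higher. Gpnmb went from 0 to 7 UMIs, at least 5.29-fold against a floor of 3 counts (exact lower limit 3.27), and Syngr1 from 5 to 7 UMIs, a fold of 3.17 whose interval (0.867 to 12.7) includes 1. The MI level of Gpnmb in cluster 11, 13.4 CPM, was low. It lay below the 18.6 CPM of MI neutrophils and above the 9.95 CPM of MI dendritic cells.

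**Figure D2:**
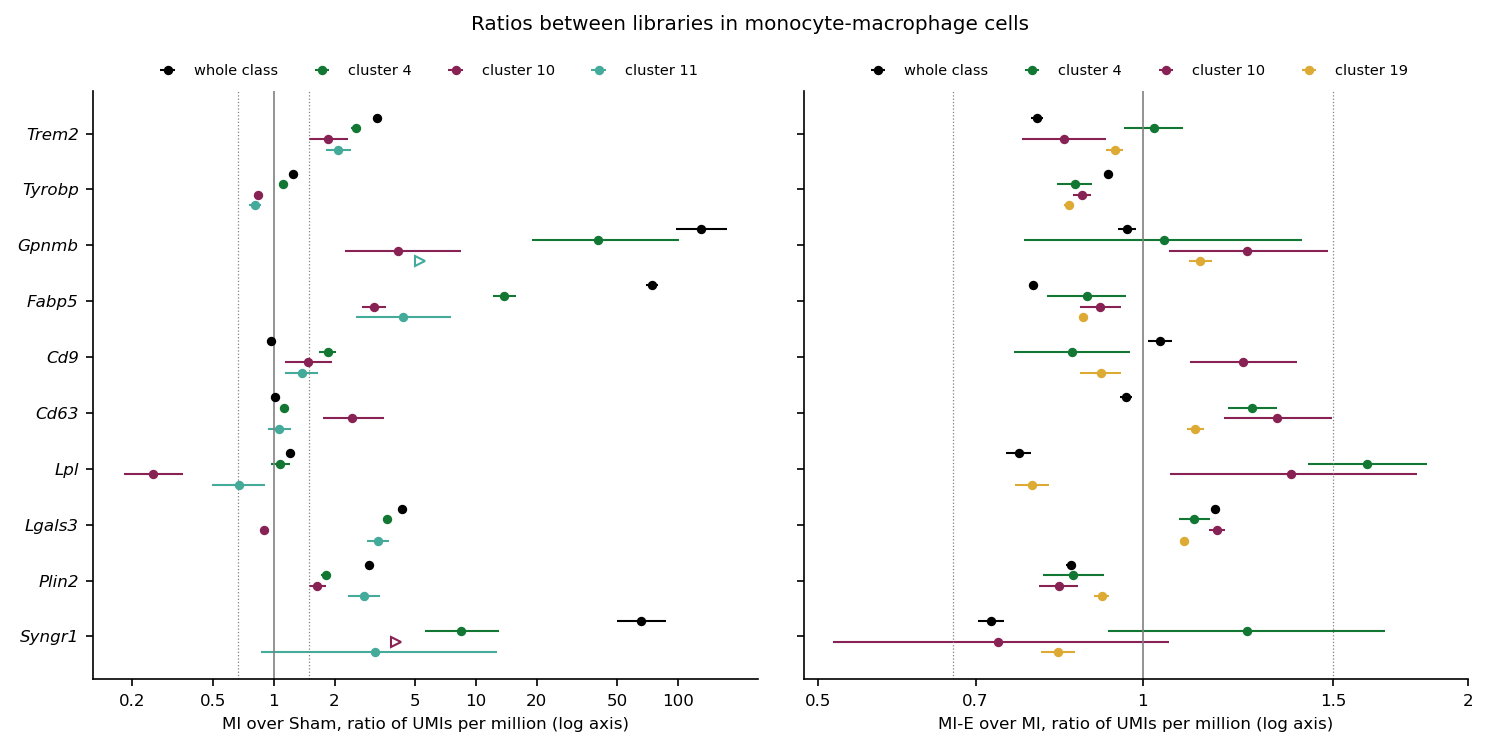
Fold difference of each of the 10 genes on a log axis with exact 95% intervals, MI over Sham in the whole class and in clusters 4, 10 and 11 (left) and MI-E over MI in the whole class and in clusters 4, 10 and 19 (right); dotted lines stand at 1.5-fold and open triangles are lower bounds. Trem2 lies between 1.86- and 3.23-fold on the left in all 4 sets of cells, and Lpl lies on both sides of 1.

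Across the class, levels were set out over the 19 combinations of cluster and library that held at least 50 cells. Trem2 ran from 38.8 CPM in the nonclassical monocytes of Sham (cluster 12) to 949 CPM in cluster 20 of MI, with 906 CPM in cluster 20 of MI-E and 782 and 736 CPM in cluster 19. Fabp5 was highest in cluster 19 of MI at 4392 CPM, beside 4291 CPM in cluster 20 of MI, and lowest in cluster 11 of Sham at 19.5 CPM. Gpnmb peaked at 444 CPM in cluster 19 of MI-E and Syngr1 at 221 CPM in cluster 20 of MI, and both were listed at 0 in cluster 12 of Sham. Lpl was highest in cluster 19 of MI at 221 CPM, next to 219 CPM in cluster 20 of MI-E, and Plin2 in cluster 20 of MI at 1237 CPM. These 6 genes thus had their highest levels in clusters 19 and 20, and the leading genes of cluster 19 included Gpnmb, Fabp5 and Syngr1, those of cluster 20 Trem2, Fabp5 and Syngr1. The other members peaked elsewhere: Cd63 in cluster 4 of MI-E at 1046 CPM, Lgals3 in cluster 17 of MI-E at 5114 CPM, Cd9 in cluster 12 of Sham at 769 CPM and Tyrobp in cluster 10 of Sham at 4201 CPM. As a description over the 19 combinations, which share libraries and depth, Pearson's r with Trem2 was 0.88 for Cd63, 0.83 for Syngr1 and 0.82 for Lpl. It was 0.67 for Gpnmb, 0.57 for Fabp5, 0.42 for Plin2 and 0.22 for Lgals3. It was negative for Cd9 (-0.23) and for the adaptor Tyrobp (-0.66).

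**Figure D3:**
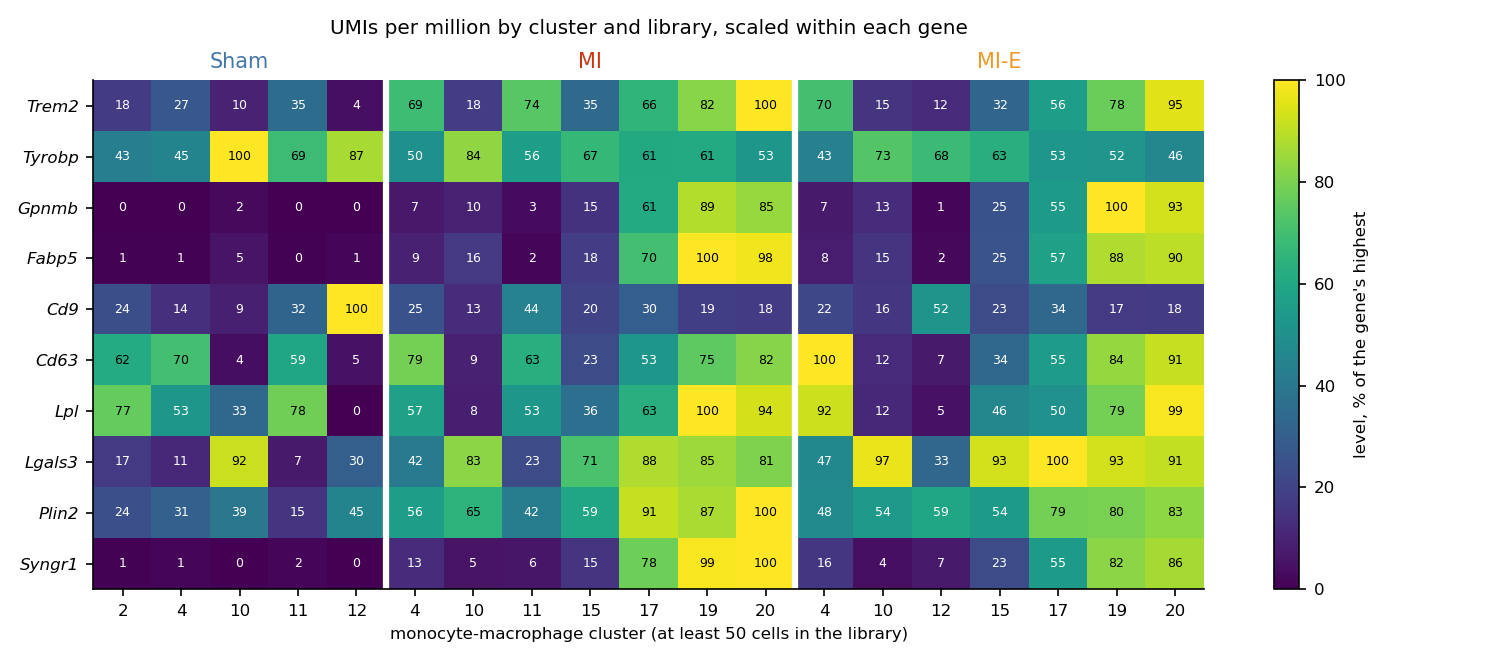
Level of each gene in each combination of cluster and library of the monocyte-macrophage class, as a percentage of that gene's highest level. Clusters 19 and 20 hold the highest values of Trem2, Gpnmb, Fabp5, Lpl, Plin2 and Syngr1, and the monocyte clusters 10 and 12 of Sham those of Tyrobp and Cd9.

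Between MI and MI-E, clusters 17, 19 and 20 gave 0 called members. In these clusters 4.41%, 3.65% and 5.64% of genes were called higher and 3.1%, 3.4% and 3.28% lower. Cluster 15, of 950 MI and 972 MI-E cells, gave 1: Gpnmb, with 65.2 CPM in MI, was 1.72-fold higher at 112 CPM in MI-E, where 3.37% of genes were called higher and 3.79% lower. Fabp5 there was at 796 and 1119 CPM, which is the reverse of its order over the class, while Trem2 was at 330 and 308 CPM. In clusters 19 and 20 Gpnmb was at 393 and 377 CPM in MI and at 444 and 414 CPM in MI-E. The class as a whole had nearly equal Gpnmb in the 2 libraries, with fewer MI-E cells in clusters 19 and 20 (31.4% and 6.36% of the class, against 37.6% and 16.9% in MI).

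Members were then counted in each cell after thinning to 1500 UMIs. On average, a monocyte-macrophage cell held a UMI of 2.89, 4.88 and 4.49 of the 10 members. At least 5 members were found in 8.93% of Sham cells (8.05 to 9.88), 54.9% of those of MI (53.7 to 56.1) and 44.7% of those of MI-E (43.5 to 45.9). At least 8 were found in 3 Sham cells (0.0781%), 518 MI cells (8.13%) and 309 MI-E cells (4.61%). Finding 5 members was not particular to this class. Neutrophils had at least 5 in 17.5%, 16.3% and 21.2% of cells, in Sham a larger share than the monocyte-macrophage cells. No neutrophil had 8 or more. Among B and T cells, at least 5 members were seen in 0 of 3294 cells of Sham and 0 of 70 of MI, for which 3 counts give limits of 0.0911% and 4.29% (exact upper limits 0.112% and 5.13%), and in 0.252% of those of MI-E. Inside cluster 4 the share of cells with at least 5 members was 9.94%, 32.0% and 33.3%, and inside cluster 10 it was 3.75% for Sham and 13.4% for MI. Inside cluster 4 MI-E was thus no lower than MI, although it was lower over the class. Cluster 19 had the highest share in MI, 71.9%, beside 71.7% in cluster 20, and the corresponding MI-E values were 67.5% and 66.7%. Cluster 15 had 24.0% in MI and 24.6% in MI-E, and cluster 17 had 56.0% and 54.1%.

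**Figure D4:**
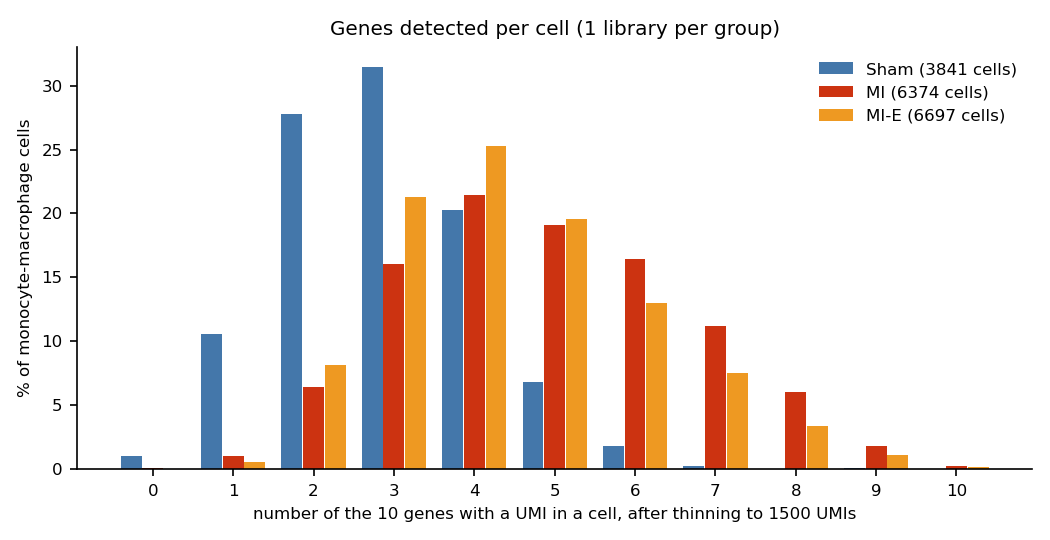
Percentage of monocyte-macrophage cells (bars from 0) with a UMI of 0 to 10 of the genes, after thinning each cell to 1500 UMIs, in each library. The median is 3 genes for Sham, 5 for MI and 4 for MI-E.

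Trem2, Gpnmb and Fabp5 were seen together in 2 Sham cells (0.0521%), 880 MI cells (13.8%) and 640 MI-E cells (9.56%). The product of their separate shares was 0.0025%, 6.88% and 3.94%. Inside cluster 19 the joint share was also above the product, 20.5% against a product of 14.5% in MI and 19.5% against 12.7% in MI-E. Of MI cells with a Trem2 UMI, 27.9% had a Gpnmb UMI, against 14.1% of those without, and for Syngr1 the shares were 20.8% and 10.2%. In MI-E the shares were 26.1% and 11.5% for Gpnmb and 17.3% and 6.44% for Syngr1. Fabp5 was seen in 65.1% of the MI cells with and 47.7% of those without Trem2, and Cd63 in 55.8% and 33.8%. Lpl was seen in 18.3% of MI cells with Trem2 and in 10.3% of those without it. Tyrobp, Cd9 and Lgals3 hardly differed in MI, at 95.7% and 95.3%, 17.3% and 15.4%, and 95.4% and 92.9%. Tyrobp and Lgals3 were seen in nearly all MI cells, which leaves their shares little room to differ. In Sham the Fabp5 shares were 3.40% of cells with (2.33 to 4.76, on 32 cells) and 4.66% of cells without Trem2 (3.92 to 5.49). These intervals overlap, and in cluster 2 of Sham the shares were 3.45% and 3.58%, so no order is read from them. Inside cluster 19 of MI the gaps were smaller but had the same direction, with Gpnmb in 34.7% and 23.1% and Fabp5 in 76.7% and 67.6% of cells. Inside the monocytes of cluster 10 of MI, where 94 cells had Trem2, no direction could be read. Gpnmb was in 4.26% (1.17 to 10.5) and 6.13% (3.93 to 9.06) of cells. Fabp5 was in 33.0% (23.6 to 43.4) and 34.9% (30.1 to 40.0).

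**Figure D5:**
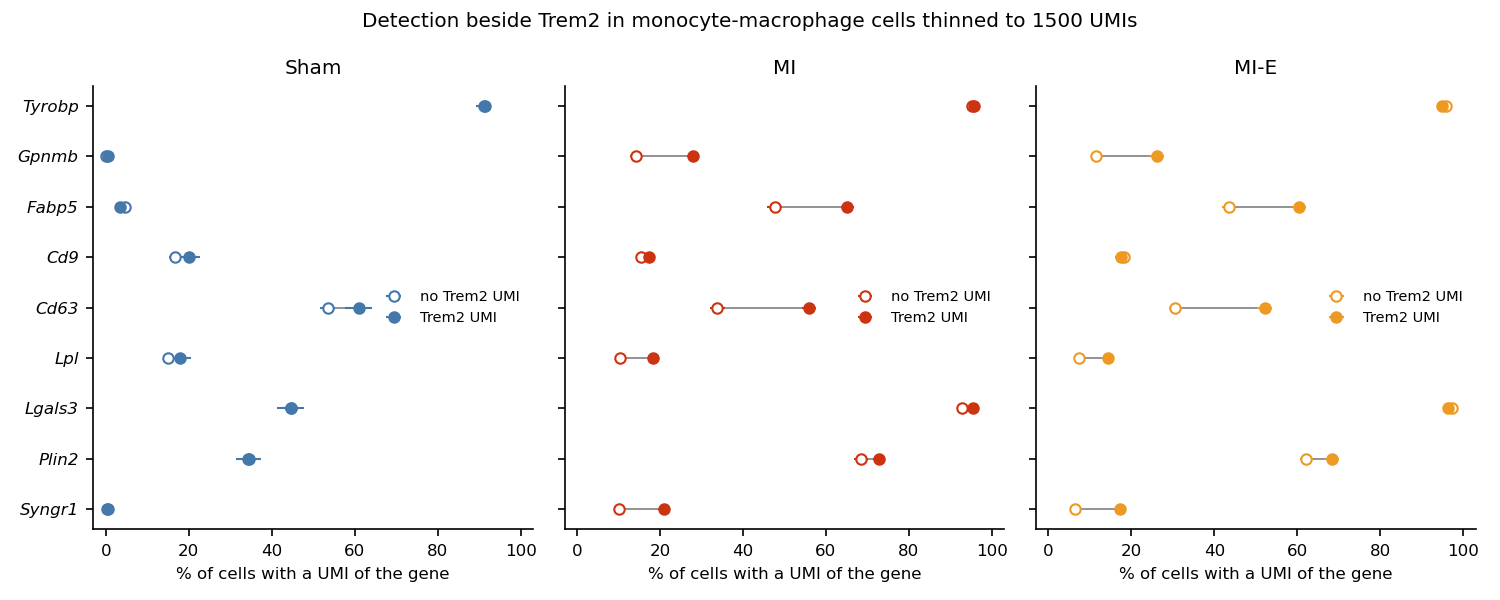
Percentage of monocyte-macrophage cells with a UMI of each other gene, after thinning, among cells with (filled) and without (open) a Trem2 UMI, by library. In MI, Gpnmb stands at 27.9% and 14.1% and Tyrobp at 95.7% and 95.3%.

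Among all 45 pairs of members, the joint share of cells divided by the product of the single shares was highest for Gpnmb and Syngr1, at 2.07 in MI and 2.40 in MI-E. Gpnmb with Lpl was next in MI at 1.85, and in MI-E Lpl with Syngr1, Cd63 with Syngr1 and Gpnmb with Lpl were at 1.74, 1.73 and 1.72. The ratio was above 1 for 42 of the 45 pairs in MI and 29 in MI-E, with medians of 1.07 and 1.02. These values pool clusters that differ in level. Inside cluster 19 the highest ratio was 1.53 in MI (Gpnmb with Lpl) and 1.72 in MI-E (Gpnmb with Syngr1), with medians of 1.05 and 1.02. Pairs with a member seen in nearly all cells, such as Tyrobp, cannot rise far above 1. In Sham 32 pairs gave a value, and 20 of them were above 1. The lowest Sham value was that of Trem2 with Fabp5, 0.781, which rests on 32 cells with both.

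The members were also read in the other classes. Neutrophils, 420 Sham, 350 MI and 3008 MI-E cells, lay in different clusters by library: 404 of the Sham cells in cluster 3, and 146 and 187 of the MI and 1860 and 1121 of the MI-E cells in clusters 13 and 16. They had Tyrobp at 6902, 5107 and 4044 CPM and Cd9 at 2015, 1546 and 1445 CPM, both above the monocyte-macrophage class of the same library. Lgals3 in neutrophils was at 1373, 566 and 735 CPM, with MI 2.43-fold below Sham (2.17 to 2.72), opposite to its direction in the monocyte-macrophage class. Of 9 members measured there, 4 were called higher and 1 lower, where 38.1% of genes were called higher and 17.6% lower. Plin2 was the abundant one among the 4, at 221, 455 and 420 CPM, 2.06-fold higher in MI. Trem2 and Gpnmb were at 42.5 and 18.6 CPM in MI neutrophils, or 6.24% and 6.53% of their levels in the monocyte-macrophage class of MI. Between MI and MI-E, 1 of the members measured in neutrophils was called, Syngr1 at 3.98 and 7.27 CPM (3 and 59 UMIs), where 11% of genes were called higher and 11.9% lower.

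Dendritic cells had Lgals3 at 2631, 2879 and 3155 CPM in Sham, MI and MI-E, and Fabp5 at 112, 469 and 448 CPM, 4.19-fold higher in MI than in Sham. Of the 1412 Fabp5 UMIs in MI dendritic cells, 73.3% lay in 10 cells. Cd9 was at 471, 297 and 180 CPM, 1.59-fold lower in MI than in Sham and 1.65-fold lower again in MI-E. Lpl was at 148, 13.3 and 7.35 CPM, with MI 11.2-fold below Sham (7.89 to 16.2), but 153 of the 179 Sham UMIs (85.5%) lay in 10 cells. Of 8 members measured, 4 were called higher in MI than in Sham and 2 lower, where 24% of genes were called higher and 11.7% lower. For MI-E against MI, 0 were called higher and 2 lower, Cd9 and Lpl, where 7.67% and 6.5% of genes were called.

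Endothelial cells, 207, 87 and 270 in the libraries, had Lpl at 263, 229 and 268 CPM and Fabp5 at 974, 2272 and 1399 CPM, and 8 members were called higher in MI than in Sham and 1 lower. In this class 25.9% of genes were called higher and 28.2% lower. Macrophage markers in these cells summed to 1064, 13970 and 6509 CPM, with 18, 22 and 23 of the 23 seen, while endothelial markers summed to 5445, 1854 and 3665 CPM. Their part in the endothelial values was not tested. For MI-E against MI, 0 members were called higher and 4 lower, where 20.4% and 10.6% of genes were called. All 10 members stood at 40.2% to 187% of their monocyte-macrophage level in MI endothelial cells and at 31.8% to 209% in those of MI-E. Trem2, at 6.73, 435 and 189 CPM there, followed the same order as the macrophage markers. Fibroblasts had Cd63 at 1049, 905 and 1395 CPM and Lpl at 334, 270 and 121 CPM, and Cd9 at 754, 235 and 206 CPM. Fibroblast markers were at 29774, 10046 and 14463 CPM in them and macrophage markers at 4843, 3230 and 3977 CPM, and their part was not tested. In MI against Sham, 7 members were called higher in fibroblasts and 1 lower, where 25.5% and 32.4% of genes were called, and in MI-E against MI 1 higher and 6 lower, where 18.1% and 9.97% were called.

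In B and T cells of MI-E, 9 members were found at 2.99% to 6.94% of their monocyte-macrophage level, and Cd9 at 25.6%. In MI the 9 were at 1.48% to 5.10% and Cd9 at 136%, with 29 of its 51 UMIs in 1 cell. In Sham, Fabp5 was at 37.2%, Cd9 at 22.2%, Gpnmb at 9.72% and Syngr1 at 8.64%, the last 2 on 2 UMIs each, and the other members were at 1.29% to 3.92%. Of 7 members measured in B and T cells, all 7 were called higher in MI than in Sham, where 22.9% of genes were called higher and 20.9% lower. NK cells had Tyrobp, which pairs with their activating receptors, at 2036, 792 and 798 CPM and Cd9 at 322, 108 and 115 CPM. In them 4 members were called higher in MI than in Sham and 2 lower, where 23.2% and 20.5% of genes were called.

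The rest of the pathway was read from 9 lists of named genes, in the monocyte-macrophage class of MI against Sham, where 23.6% of all genes were called higher and 18% lower. Of 17 measured partners in TREM2 signalling, 7 were called higher and 1 lower, and their median log2 difference was 0.50, beside 0.11 for all genes. Malt1, a protease of the CARD9 complex, was 4.48-fold higher, at 97.4 CPM against 21.7 CPM. Lat2, a membrane adaptor, and Plcg2, the phospholipase downstream of SYK, were 2.52- and 2.00-fold higher, and Pik3cg was 1.73-fold lower. Of 10 measured receptors that pair with TYROBP or counteract them, 4 were higher and 5 lower (median -0.48). Trem1, which amplifies inflammation, was 4.84-fold and Trem3 2.75-fold higher, while Cd33, a lectin, was 6.60-fold lower and Clec5a 1.67-fold lower. Genes of this list thus differed in both directions.

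Of 6 measured ligand genes, 3 were higher and 2 lower (median 0.46). Apoc2 was 11.8-fold and Psap, the saposin precursor, 3.58-fold higher, while Apoe, the main apolipoprotein of macrophages and a TREM2 ligand, went from 24873 CPM in Sham to 8799 CPM in MI, 2.83-fold lower. Of 11 measured genes of lipid uptake, 7 were higher and 0 lower (median 0.85). Slc27a1, a fatty acid transporter, was 9.77-fold, Olr1, a receptor for oxidised lipoprotein, 9.63-fold and Lrp1 3.63-fold higher, and Cd36 was 1.20-fold lower, short of a call. Of 13 measured genes of droplets and lipolysis, 5 were higher and 2 lower (median 0.32). Hilpda, which blocks droplet lipolysis, was 6.61-fold, Soat1, which esterifies cholesterol, 4.49-fold and Lipa, the lysosomal acid lipase, 2.00-fold higher. Lipe and Acsl3 were 2.29- and 2.05-fold lower. Of 9 measured genes of cholesterol efflux and its control, 3 were higher and 1 lower (median 0.32), with Nr1h3 (LXR alpha) 6.09-fold, Abcg1 2.72-fold and Srebf1 1.99-fold higher and Mylip 2.24-fold lower.

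Other genes known from lipid-associated macrophages and disease-associated microglia gave 10 higher and 2 lower of 17 measured, with a median log2 difference of 0.78 against 0.11 for all genes. Spp1, osteopontin, was 211-fold and Ctsd, the lysosomal protease, 11.4-fold higher, while Ch25h and Igf1 were 5.64- and 3.01-fold lower. Other tetraspanins did not follow: of 11 measured, 0 were higher and 3 lower (median -0.01), with Cd81 going from 854 CPM in Sham to 111 CPM in MI, 7.68-fold lower. Of 13 measured transcription factors of macrophages and lysosomes, 2 were higher, Bhlhe40 (5.11-fold) and Hif1a (3.58-fold), and 4 lower, among them Atf3, from 2315 to 371 CPM, and Maf, 2.07-fold lower (median -0.44).

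For MI-E against MI, where 4.37% of all genes were called higher and 4.48% lower, the lists gave 0 to 2 calls in each direction. Malt1 was 1.69-fold, Trem1 1.58-fold, Sirpb1b 1.77-fold and Apoc1 1.66-fold higher in MI-E. Dgat2 and Dgat1, which make triglyceride, were 2.00- and 1.68-fold higher, while Hilpda was 1.56-fold and Fabp4 1.95-fold lower. Igf1 was 1.85-fold lower, and of the tetraspanins Tspan13 was 1.87-fold higher and Cd81 and Tspan32 1.79- and 1.63-fold lower. The lists of cholesterol efflux and of transcription factors gave 0 calls.

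The genes whose levels were most like the mean of the 10 members, each scaled over the 19 combinations of cluster and library, were ranked among genes reaching 50 CPM in their highest combination. Psmb6, a proteasome subunit, came first with a Pearson r of 0.97, followed by Rnf128, Lat2 and Psmd1, each at 0.96. Atp6v1g1 and Tcirg1, subunits of the proton pump that acidifies lysosomes, Spp1 and Ctsd were also at 0.96, and Arg1, arginase 1, and Pdpn at 0.95. The members did not all follow their own mean. A member's r with the mean of the other members ran from -0.44 for Tyrobp and -0.35 for Cd9 to 0.95 for Gpnmb, with 0.36 for Cd63 and 0.35 for Lpl. All these r values describe combinations that share libraries and depth.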

How the data were processed

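Leukocytes sorted on CD45 from mouse heart were profiled in 3 libraries, Sham, MI and MI-E. The deposited values are whole-number UMI counts per gene and cell barcode, made by the authors with Cell Ranger 5.0.1 on mm10, per the submitters' processing notes. The files had 500 or more UMIs in every barcode.

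Barcodes with under 200 genes or over 10% mitochondrial UMIs were removed. Predicted doublets (Scrublet, at a rate of 0.8% per 1000 barcodes) were removed too, 1032, 662 and 289 in that order; the threshold was automatic for MI-E and set by the expected rate in the others. Cells of all libraries were clustered together in scanpy 1.11.5 with 2000 variable genes, 30 principal components, 15 neighbours and Leiden resolution 1, with no integration. Clusters were named from 17 marker lists, and 3 clusters stayed unnamed. UMIs were summed per class and library and divided by the class total (CPM). A call needs a 1.5-fold difference on CPM + 1. Shares were taken after thinning to 1500 UMIs, which left out 237 Sham, 71 MI and 61 MI-E monocyte-macrophage cells. The genes named from each list were the 3 largest differences each way; 1 of 123 list symbols was not matched, and some list genes are not reported here. The members and lists were chosen with earlier results of these data known. The calling script was checked on simulated data. Promoters are RefSeq, GRCm38.p6.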

Additional observations from a re-analysis of the deposited data

How the results depend on the processing

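Over the alternatives tried, which were scaling, pseudocount, equal weight per cell, doublets, mitochondrial limit, variable genes, resolution, separate clustering and choice of clusters, no called member changed direction. The 12 alternatives gave log2 differences of MI over Sham of 1.10 to 1.88 for Trem2, 3.32 to 6.73 for Gpnmb, 2.48 to 6.60 for Fabp5, 1.14 to 2.43 for Lgals3, 1.02 to 1.76 for Plin2 and 2.64 to 5.71 for Syngr1. Tyrobp, Cd9, Cd63 and Lpl, not called, changed sign between settings. TMM scaling moved the median of all genes from 0.11 to 0.29. The count of members lower in MI than in Sham was 1 as a mean within clusters (Lpl, -0.79), where 7 were higher, Cd9 (0.63) being added, and that of members lower in MI-E than in MI was 1 with every cell weighing the same (Syngr1, -0.63). For MI-E over Sham, the mean within clusters lost the call of Plin2 (0.49) and gained those of Cd63 (0.91) and Lpl (0.95). The Lpl gain rests on cluster 12, with 2 UMIs in MI-E against 0 in Sham, and Lpl was lower in cluster 10 (-1.49). The share of cells with at least 5 members, in Sham, MI and MI-E, was 28.7%, 76.5% and 68.0% at 3000 UMIs, 46.2%, 91.4% and 87.8% without thinning, and 0.391%, 20.7% and 13.8% with at least 2 UMIs per member; the order stayed. The Sham values of Gpnmb and Syngr1 rest on 48 and 54 UMIs, so the intervals of their folds over Sham are wide. No paired analysis was possible because each group has 1 library.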

Other observations

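Clusters left unnamed also held the members. Cluster 18, with neutrophil genes among its leading genes, had 511 MI and 368 MI-E cells, in which Trem2 was at 211 and 217 CPM, Fabp5 at 565 and 999 CPM and Gpnmb at 45.0 and 93.0 CPM. Cluster 1, 1140 Sham cells of low UMI count, had Trem2 at 174 CPM, Lpl at 99.9 CPM and no Gpnmb UMI. Cluster 8, 199 MI and 260 MI-E cells of low UMI count, had Gpnmb at 132 and 162 CPM and Trem2 at 210 and 190 CPM. None of these cells entered the monocyte-macrophage values.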
